A study of Mus musculus with 3 samples.

Results

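Heterotrimeric G proteins, the proteins that switch them off and the enzymes that make, break and read cyclic nucleotides were followed in the retina of young mice lacking Rp1. The genes were taken by symbol: a probe set entered where the platform annotation gave it a single symbol opening with the name of a G protein subunit, a regulator of G protein signalling (RGS), an adenylyl or guanylyl cyclase or its activator, a phosphodiesterase, a kinase dependent on cyclic AMP or cyclic GMP, a G protein-coupled receptor kinase or a beta-arrestin. This gave 91 of 12422 probe sets, standing for 67 of 8251 genes with a single symbol. The subunits Gnao1, Gnb1, Gnb3, Gngt2, Pde6a, Pde6b and Pde6g, with 14 probe sets, were left out by the same rule. The rule reads names and no measured value, though it was written with earlier results of these data known. Not every gene chosen by name belongs to the enzymes and subunits: Gnasas1 is an antisense RNA of the Gnas locus, Pde4dip is a scaffold that binds a phosphodiesterase, and Adcyap1 and Adcyap1r1 are the peptide PACAP and its receptor. These were kept apart from their namesakes.

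The 3 arrays, of the Affymetrix U74Av2 type, formed 1 group. Each carried total RNA pooled from the neural retinas of 3 to 4 Rp1-/- mice at postnatal day 10, on a background mixed from 129/SvEv and C57BL/6, and all retinas were taken in the early afternoon, between 1 and 2 pm. The labels name the knockout without saying how it was made, and they do not say whether the pools shared litters, so the spread between pools is that between these RNA samples. The pools are numbered 1 to 3 in accession order, which is a name and not a sequence. The array title of pool 1 lacks the letters rp1, which the titles of pools 2 and 3 hold. The descriptions name Rp1-/- mice for all 3, and the labels do not explain the difference in title. By these descriptions no control genotype was analysed here, so nothing below is read as a difference between genotypes.

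A G protein is a switch with an alpha subunit that binds GTP and a paired beta and gamma subunit; an activated receptor turns it on, and RGS proteins speed its return to the resting state. Alpha subunits of the Gs class raise cyclic AMP through adenylyl cyclases, those of the Gi class lower it, and phosphodiesterases remove cyclic AMP and cyclic GMP. In the retina this machinery carries vision itself: light lowers cyclic GMP in rods and cones, guanylyl cyclase restores it, and ON bipolar cells read glutamate through a Go-coupled receptor.

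Most of these genes gave signal in the mutant retinas, and none of their probe sets varied between pools beyond the usual spread for its brightness after correction for multiple tests. Signals are in scaled intensity units. A floor was set on each array from bacterial and yeast control probe sets, at 100.5, 124.8 and 120.4 in pools 1, 2 and 3. Of the 91 member probe sets 60 lay above the floor on all arrays and 12 on none, against 57.9% and 23.3% of all probe sets. By gene, 50 of 67 had a probe set above the floor in every pool, 12 had one in 1 or 2 pools only, and 5 (Gna14, Gng4, Guca2b, Pde1a and Pde1c) had none. A dim gene in retina pooled whole can mean few cells of a type or little RNA per cell, and these cannot be told apart here. Signals of different probe sets are not amounts of transcript relative to each other, since each set binds its target with its own strength.

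**Figure D1:**
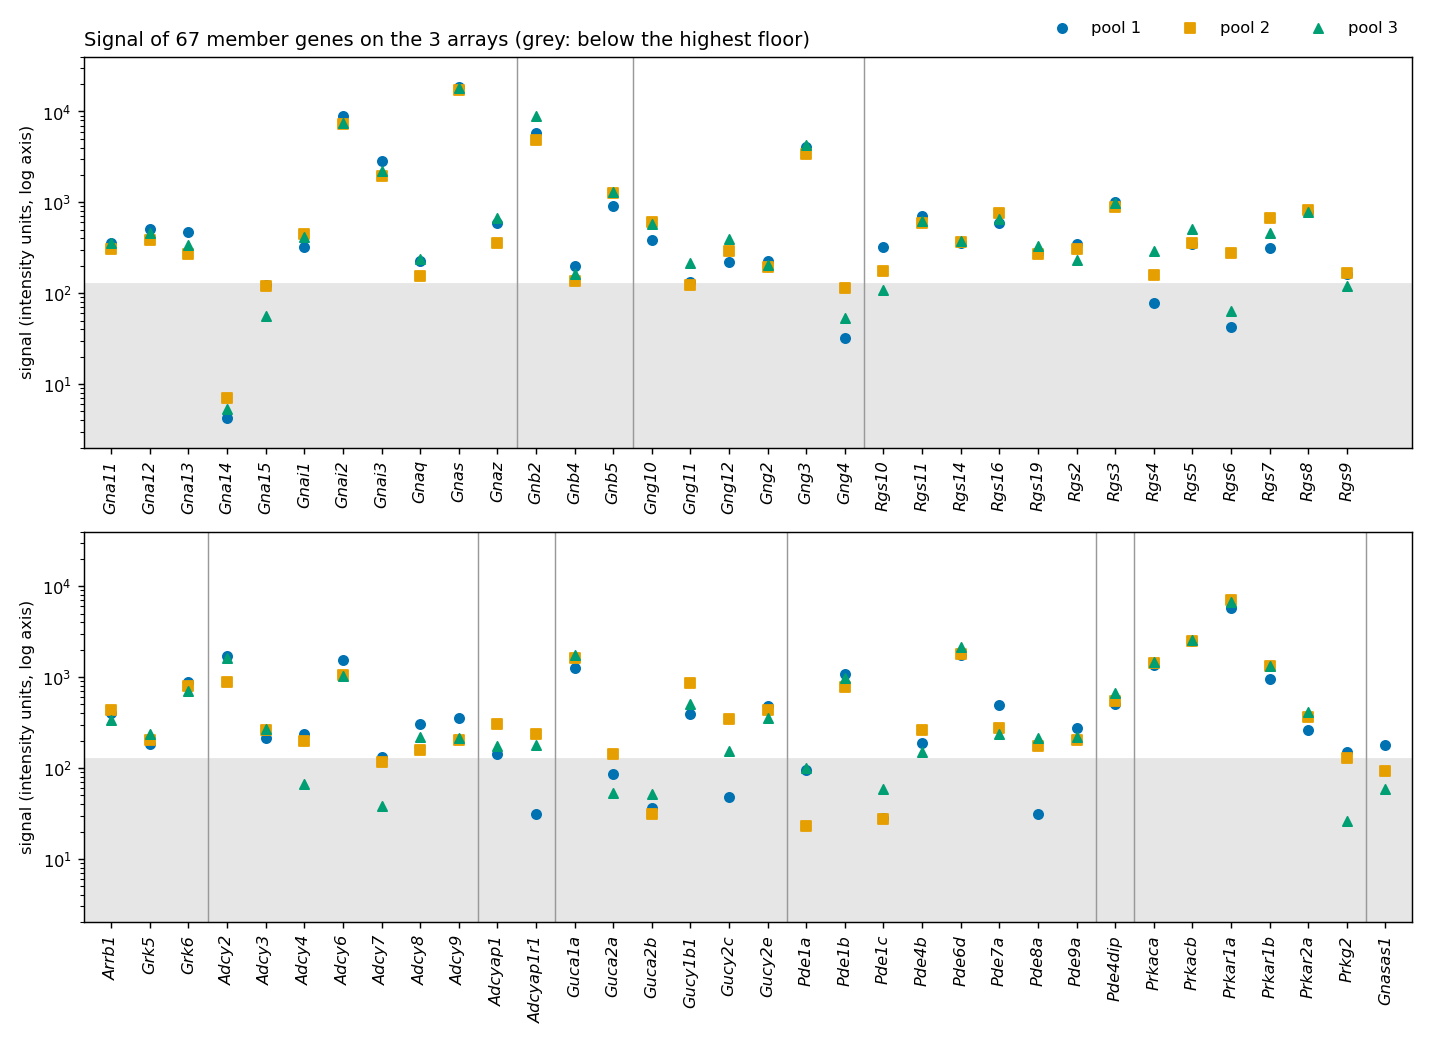
Signal on a log axis for the 67 member genes, each by its probe set of highest mean signal, with 1 point per pool (circle, pool 1; square, pool 2; triangle, pool 3). Grey marks signals under the highest of the 3 floors, 124.8, and vertical lines part the families; 49 genes lie above their array's floor in all pools by this probe set.

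The spread between pools was measured for 72 of the 91 probe sets, those whose mean signal exceeded the mean floor, a filter that 67% of all probe sets passed. They stand for 57 genes. Their median SD of log2 signal was 0.26, beside 0.27 for all 8327 measured probe sets. A fit across all of these (limma) asked of each probe set whether its variance exceeded that of others of like signal. None of the 72 passed after Benjamini-Hochberg adjustment, where 0.216% of all measured probe sets did; the smallest adjusted p was 0.83. Before adjustment 5 of 72 had a p under 0.05, beside 5.34% of all, a share near the background. These were probe sets of Gnb2, Gucy2c, Arrb1, Adcy2 and Gucy1b1. The filter let a dim set enter through a single high pool, which favours a large spread. Without their highest pool, the measured sets of Rgs6, Gucy2c, Adcyap1r1 and Pde8a would have had a mean under the mean floor. The spread and p of these sets are therefore partly set by the filter. The members' SD was above the typical value at their signal for 29 of 72 (40.3%), beside 39.7% of all.

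**Figure D2:**
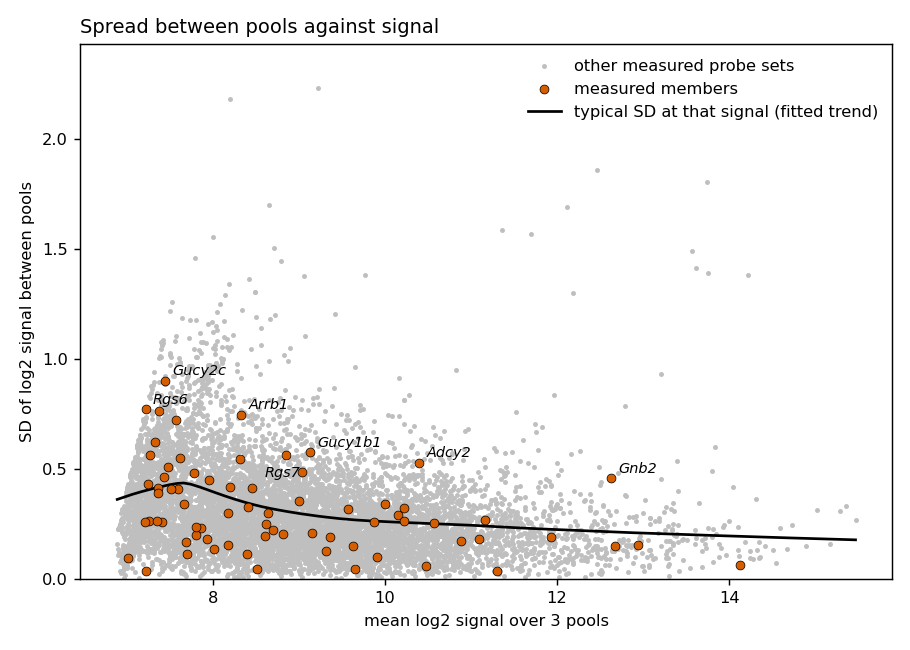
SD of log2 signal between the 3 pools against mean log2 signal for the 8327 measured probe sets (grey) and the 72 measured members (orange). The line is the typical SD that limma fitted at each signal, and the 7 members with the smallest p are named; most members lie within the grey cloud and 29 lie above the line.

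Pairs of pools differed by more than 2-fold for few members. Signals under the floor were first set to it. Between pools 1 and 2, 7 of 72 probe sets passed 2-fold, against 6.24% of all. Between pools 1 and 3 there were 5, against 6.92%, and between pools 2 and 3 there were 2, against 5.1%. In all 11 of 72 passed it in some pair, against 13.2%. Leaving a pool out leaves 1 pair, and the count was then 2 without pool 1, 5 without pool 2 and 7 without pool 3. For the highest and lowest pool, signals were compared without setting them to the floor. Of the 72, 23 were highest in pool 1, 22 in pool 2 and 27 in pool 3, where all measured probe sets divided as 34.1%, 33.7% and 32.2%. Pool 1 was the lowest for 33 of the 72 and pool 2 for 26, against 34.8% and 33.4% of all.

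Markers of sex and of other cells differed between the pools. Each marker gene was read by its probe set of highest mean signal alone, some of them of the f, g, r or s class. Xist, which silences an X chromosome in female cells, had 69.5, 1384.4 and 1543.7 in pools 1, 2 and 3. Pool 1 was under the floor, and this set passed the variability test (limma, adjusted p = 0.00063). The Y-linked Eif2s3y had 546.4, 428.8 and 247 by a set of the f class, above the floor in all pools and highest in pool 1. The other Y-linked markers with a probe set, Uty and Kdm5d, were too dim to be measured. Uty had 124.7, 105.8 and 106.9 and exceeded the floor only in pool 1, where the floor was lowest. Kdm5d, with 95, 77.1 and 24.3, did not reach it on any array. The labels do not give the sex of the mice. The crystallin and other lens markers had summed signals of 94951, 25486 and 203758 in pools 1, 2 and 3, and all 11 measured of 12 with a probe set were highest in pool 3. Their order, pool 3 over pool 1 over pool 2, was shared by 10 of the 72 members, against 15.6% of all probe sets. The rod markers summed to 77592, 100476 and 88839, and all 10 measured were highest in pool 2. Haemoglobin and other blood markers summed to 20541, 12672 and 10546, highest in pool 1 for all 3 measured. Markers of the pigment epithelium summed to 1517, 1600 and 2522, with Pmel at 319.7, 327.7 and 908, and 3 of 4 measured were highest in pool 3. Endothelial markers summed to 1500, 1658 and 2019, and 4 of 5 measured were highest there. The ratio of 3' to 5' signal for Actb, a sign of RNA integrity, was 1.10, 1.40 and 1.63. For Gapdh the ratio was 0.82, 0.90 and 0.75, lowest in pool 3. Against the label of neural retina, every listed marker with a probe set for rods, cones, bipolar and ganglion cells was above the floor in all pools. So were 6 of 7 for amacrine cells and 5 of 6 for Müller glia, while Gad2 and Vim, the remaining ones, were under the floor in all. Each lens and blood marker with a measured set was above it in all pools. Pool 1 thus stood apart in Xist, and had the lowest rod sum, the highest blood sum and the lowest Actb ratio, though not the lowest Gapdh ratio. The part of these in any member's values was not tested.

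Of 11 alpha subunit genes 9 lay above the floor in every pool, and their 16 measured sets had a median SD of 0.22. The set of Gnas (the Gs alpha subunit, which stimulates adenylyl cyclase) with the highest signal had 18469.7, 17056.8 and 18249.6 in pools 1, 2 and 3. This set is of the s class. The pools lay within 1.08-fold of each other, and quantile normalization changed which was highest and which lowest. Another Gnas set had 285.7, 236.8 and 253.6, and the last passed the floor in pool 1 alone (110.5, 29.6 and 115.7), where the floor was lowest. Gnas makes several transcripts from different first exons, so its sets need not report the same RNA.

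The Gi subunits, which inhibit adenylyl cyclase, were all detected. Gnai2 had 8899.6, 7306.9 and 7552.2 by a set of the f class, highest in pool 1. A second set, of the g class, with 2233.9, 2446.9 and 1912.4, was highest in pool 2, and the last, with 784.1, 1164.2 and 1189.8, in pool 3. Gnai3 had 2814, 1948.1 and 2212.8, also highest in pool 1 and 1.44-fold over pool 2 (limma, adjusted p = 0.99). Gnai1 had 324.8, 451 and 418.3, lowest in pool 1, and a second set was nearly level at 147.2, 154.5 and 148.9, where the lowest pool depended on the scaling. Gnaz, a Gi relative that resists pertussis toxin, had 597.4, 357.4 and 675.3. Pool 2 was the low one, 1.89-fold under pool 3, and this was the largest spread of the alpha subunits (SD of log2 signal 0.49; limma, unadjusted p = 0.10, adjusted p = 0.99).

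The Gq class, which acts through phospholipase C, and the G12 class had 7 measured sets from 4 genes, none of which passed the test. Gnaq had 228.1, 154.5 and 235.1, and Gna11, its close relative, 352.3, 307.5 and 353.4. Pool 2 was lowest in both, and in a second Gna11 set close to the floor (123.5, 108.5 and 139.2), where pool 2 was under it. Gna12 had 511.3, 386.2 and 461.8, and its second set 218.5, 191.7 and 265.8, again lowest in pool 2. The sets of Gna13 opposed each other: 473.2, 267.6 and 338.2 in one, highest in pool 1, and 133.3, 188.4 and 142.9 in the other, highest in pool 2. Gna14 was under the floor everywhere (4.2, 7 and 5.3), and Gna15, a subunit known from blood cells, passed it in pool 1 alone (121.8, 119.7 and 56.5). Pools 1 and 2 were nearly level in Gna15, and the floor was lower in pool 1 (100.5 against 124.8).

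Among the beta subunits, Gnb2 had the smallest unadjusted p of all members. Its signals were 5841.1, 4843.2 and 8986.8. Pool 3 stood above the other pools, 1.86-fold over pool 2, and at this brightness the typical SD of log2 signal is 0.21 against 0.46 here (limma, unadjusted p = 0.031, adjusted p = 0.83). Its order is that of the lens markers given above, whose part was not tested. Gnb4, another typical beta subunit, had 198.2, 137.6 and 161.5. Gnb5, the divergent beta subunit that pairs with RGS proteins of the R7 class in place of a gamma subunit, had 905.2, 1264.1 and 1295.4. It was lowest in pool 1, by up to 1.43-fold (limma, adjusted p = 0.99).

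Of 6 gamma genes 4 passed the floor in every pool. Gng3, a neuronal gamma subunit, had 4093.4, 3363.9 and 4325.9, within 1.29-fold. Gng10 had 387.9, 600.6 and 582, lowest in pool 1. Gng12 had 222.3, 291 and 396.1 by one set and 132.5, 217.9 and 213.7 by the other, so pool 1 was lowest in both and the highest pool differed. Gng2 was level at 226.7, 194 and 206. Gng11 passed the floor in pools 1 and 3 (132.4, 124.1 and 215.1), and its second set in none. Gng4 did not pass it (32.2, 113 and 53.8). The 6 measured gamma sets had a median SD of 0.38 and a median log2 difference (pool 1 minus pool 3) of -0.64, beside -0.01 over all probe sets. Of the 6, 2 are of Gng12, and Gng2 went the other way. None passed the test, and the part of the pool 1 values of Xist (69.5 against 1543.7 in pool 3) and of the Actb ratio (1.10 against 1.63) was not tested. The Gapdh ratio went the other way (0.82 against 0.75).

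The RGS proteins ranged from nearly constant to uneven, with SDs of log2 signal from 0.04 to 0.77. All 13 genes had a measured probe set, and 11 passed the floor in every pool. Rgs3, a regulator of Gi and Gq subunits, had 1011.6, 886.1 and 984.3. Rgs8 had 785.1, 833.1 and 791.1 by its only set, of the f class, and Rgs14, which also binds inactive Gi subunits, had 357.6, 362.9 and 379.4. These last were level to 1.06-fold each.

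The R7 class works with Gnb5 in the retina: Rgs9 with Gnb5 switches off transducin in photoreceptors, and Rgs7 and Rgs11 with Gnb5 act on Go at the dendrites of ON bipolar cells. Rgs7 had 312.3, 680.2 and 463.4. Pool 2 was 2.18-fold over pool 1, an SD of 0.56 against a typical 0.31 (limma, unadjusted p = 0.067, adjusted p = 0.99). Rgs11 had 704.5, 597.1 and 619.4, highest in pool 1 where Rgs7 was lowest, within 1.18-fold. Rgs9 was near the floor at 162.3, 167 and 121, above it by little in pool 3. Rgs6 passed the floor in pool 2 alone, at 273.7, with 42.2 and 62.9 in pools 1 and 3. Pool 2 was at least 2.72-fold over pool 1 (limma, unadjusted p = 0.054, adjusted p = 0.96). Without pool 2 this set would not have passed the filter. A second Rgs11 set, of the r class, was under the floor on every array (12.5, 13.4 and 6.6).

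In the RGS genes with several measured sets, Rgs5, Rgs10, Rgs16 and Rgs19, the sets of a gene differed in their highest pool. Rgs16 had 585.4, 758.3 and 647.3 by one set, highest in pool 2, and 175.3, 107.3 and 236.7 by another, lowest there and under the floor. Rgs5, a marker of pericytes, had 350.4, 359.6 and 508.1, highest in pool 3, and 192.4, 192.5 and 118.9, lowest in pool 3. Rgs10 had 323.9, 176.6 and 109 by a set of the f class and 187.8, 189.1 and 138.3 by another, both lowest in pool 3, while the remaining set was under the floor. Rgs19 had 278.1, 268.1 and 327.9 and 195.2, 257.6 and 222.7, with a further set under the floor.

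Rgs2, which acts on Gq, had 348.6, 302.7 and 231.9. Rgs4, also a regulator of Gi and Gq, had 78, 159.7 and 287.9: pool 1 lay under the floor and pool 3 was at least 2.87-fold over it (limma, unadjusted p = 0.068, adjusted p = 0.99).

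Kinases and arrestins silence activated receptors by phosphorylating and then capping them. Grk6 had 876, 802.6 and 712.3 and Grk5 185.6, 201.7 and 233.8, both within 1.26-fold. Arrb1, a beta-arrestin, had 398.7, 439.9 and 337.1 by one set. Its other set, of the f class, had 177.4, 430.5 and 438.5, with pool 1 lower by 2.47-fold (limma, unadjusted p = 0.033, adjusted p = 0.83). The low pool 1 appeared in 1 of the 2 sets of the gene.

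**Figure D3:**
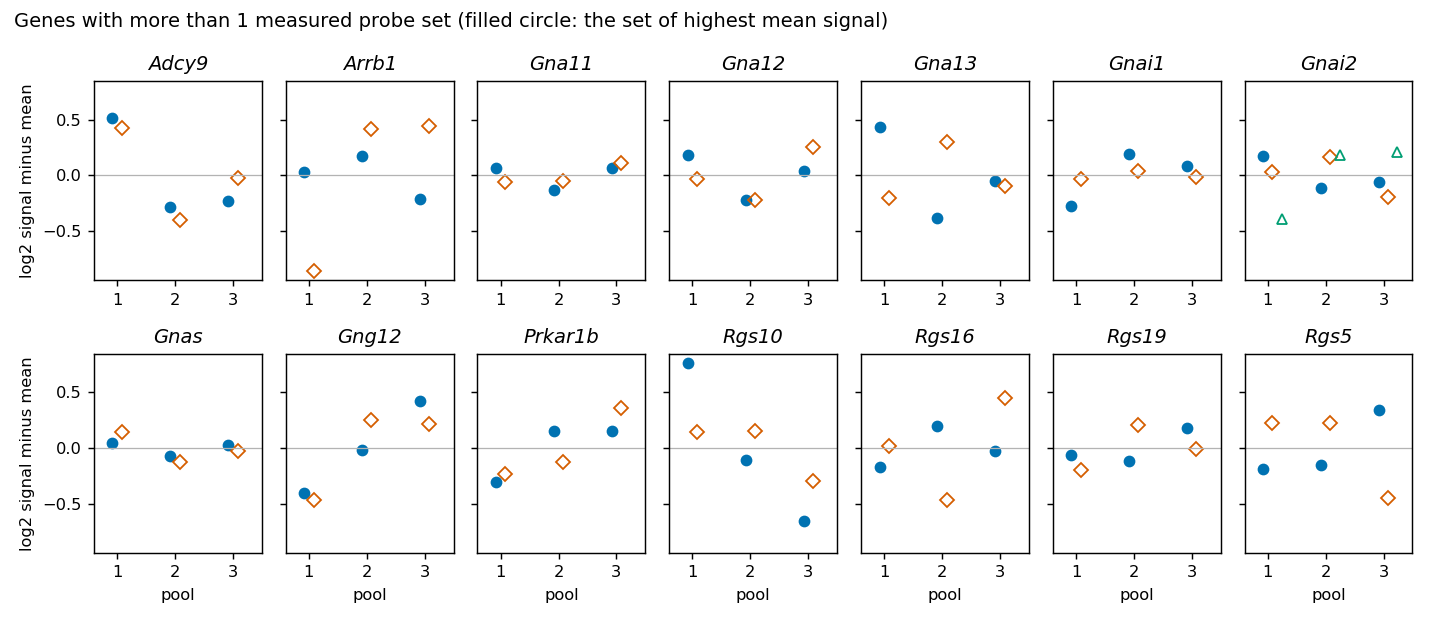
Log2 signal minus the probe set's own mean over pools 1, 2 and 3 for the 14 genes with more than 1 measured probe set. Filled circles are the set of highest mean signal and open symbols the others; the highest pool is the same across sets for 4 genes and differs for 10, among them Gna13, Rgs5 and Rgs16.

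Of 14 genes with more than 1 measured probe set, 4 (Adcy9, Gna11, Gnai1 and Gnas) had the same highest pool in all of them. The other 10 did not, among them Prkar1b, which had 1324.4 and 1321.2 in pools 2 and 3 by its brighter set. After quantile normalization the sets of Gnas differed in their highest pool and those of Prkar1b shared pool 3. The share over all genes with several measured sets was not computed.

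Adenylyl cyclases, the enzymes that make cyclic AMP, were mostly highest in pool 1. Adcy2, a cyclase stimulated by beta-gamma subunits, had 1726.4, 886.6 and 1604.5. Pool 2 was the low one, 1.95-fold under pool 1 (limma, unadjusted p = 0.036, adjusted p = 0.83). Adcy6, which calcium inhibits, had 1542.1, 1067.9 and 1035.2 (the lower of pools 2 and 3 depended on the scaling), and Adcy8, which calcium and calmodulin stimulate, had 307.9, 157.6 and 219. Adcy9 had 356.8, 204.2 and 211.5 by one set and 221.6, 121.1 and 162.7 by the other. In each of these pool 1 was highest. Adcy4 had 238, 196.9 and 65.9, under the floor in pool 3, while Adcy3 had 211.4, 258.7 and 265.5, lowest in pool 1. Adcy7 was not measured (132.7, 116.8 and 37.9).

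Of the 7 measured cyclase sets 6 were highest in pool 1, against 34.1% of all measured sets. The count was also 6 after quantile normalization and after scaling to equal medians. Pool 1 exceeded pool 2 by a median log2 difference of 0.81 and pool 3 by 0.49, where over all probe sets both differences (pool 1 minus the other) were -0.01. No set passed the test, and 2 of the 7 sets are of the same gene. The blood markers, summed above, were also highest in pool 1, where Xist was lowest (69.5 against 1384.4 and 1543.7) and so was the Actb ratio (1.10). The Gapdh ratio was lowest in pool 3 (0.75). The part of these here was not tested.

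PACAP, a peptide that raises cyclic AMP through its receptor, showed another order. Adcyap1 had 144.3, 301.7 and 175.3, and the receptor gene Adcyap1r1 had 30.9, 233.9 and 177.5. Both were highest in pool 2 and lowest in pool 1, where the receptor was under the floor and at least 2.33-fold lower than in pool 2 (limma, adjusted p = 0.99 for both genes). The rod sums had the same order (77592, 100476 and 88839), and Xist was also lowest in pool 1, at 69.5; their part was not tested. A second receptor set stayed under the floor throughout (8, 36.1 and 79.6).

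**Figure D4:**
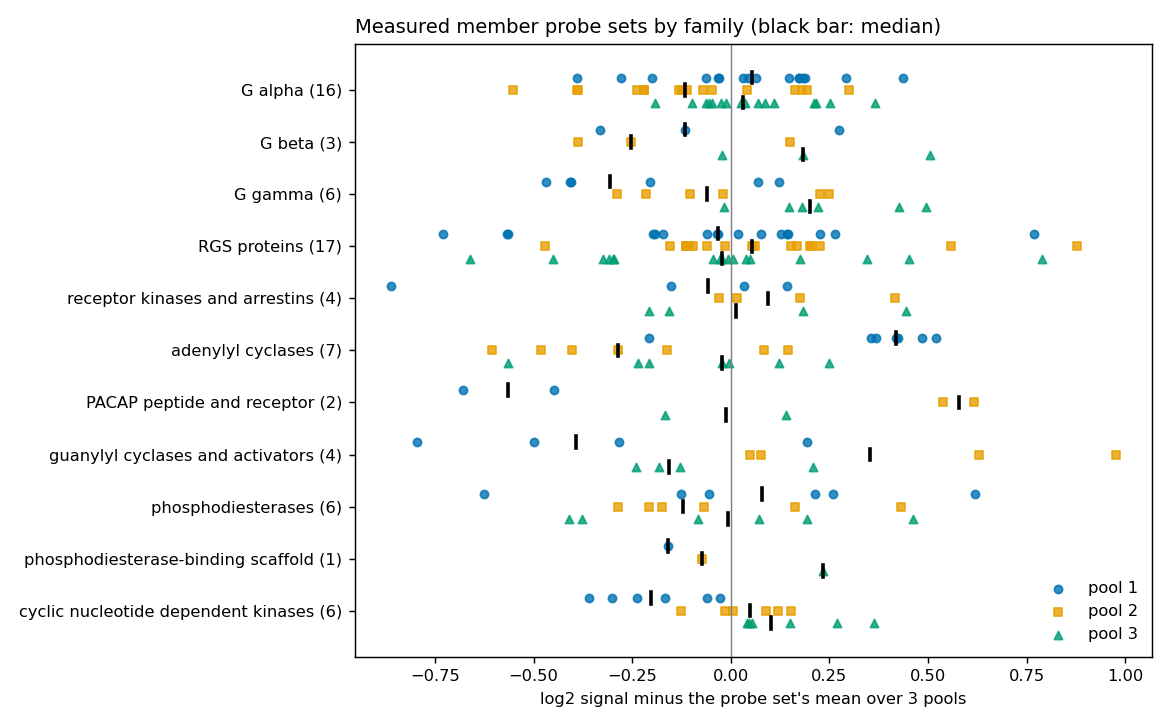
Log2 signal minus the probe set's mean over the 3 pools for the 72 measured members, by family, with the number of sets in brackets (circle, pool 1; square, pool 2; triangle, pool 3; black bar, median). In the adenylyl cyclases 6 of 7 sets are highest in pool 1, and in the cyclic nucleotide dependent kinases none of 6 is, against 34.1% of all measured sets.

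Cyclic GMP in photoreceptors is made by a membrane guanylyl cyclase, Gucy2e, held in check by calcium through its activator protein Guca1a (GCAP1). Gucy2e had 476.6, 431.6 and 352.8, and Guca1a had 1251.2, 1606.7 and 1759.6. The enzyme was highest in pool 1 and its activator lowest there, with ranges of 1.35-fold and 1.41-fold, and neither passed the test (limma, adjusted p = 0.99 for both).

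Both genes, and Gnb5, carried in the region before a start site the letters TAATCC, the core that the photoreceptor factor Crx and its relatives bind. The regions are shown because they belong to the pair that restores cyclic GMP and to the partner of Rgs9. They were read from RefSeq (GRCm38.p6) on the strand of the gene and end before the start site, and capitals mark the core, which reads GGATTA here because it lies on the opposite strand.
Gucy2e, chr11:69237023-69237119, minus strand: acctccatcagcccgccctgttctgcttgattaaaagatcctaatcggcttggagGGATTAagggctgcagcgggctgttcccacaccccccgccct
Guca1a, chr17:47400607-47400718, minus strand: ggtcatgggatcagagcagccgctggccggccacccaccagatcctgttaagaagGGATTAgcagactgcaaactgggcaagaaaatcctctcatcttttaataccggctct
Gnb5, chr9:75306227-75306287, plus strand: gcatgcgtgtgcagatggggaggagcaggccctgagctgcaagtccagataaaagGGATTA
The core began 42 bases before the start in Gucy2e, 57 in Guca1a and 6 in Gnb5.

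Windows from 250 bases before to 50 after a start were at hand for 53 of the 67 genes. TAATCC, on either strand, was in 7 of the 53 (13.2%; Gnb5, Grk6, Guca1a, Gucy2e, Pde1a, Pde1b and Rgs19), against 8.14% of 27025 genes. The cyclic AMP response element TGACGTCA, the site of Creb1, was in 1 (Prkar1a, 1.89%), against 2.03%. Its half-site TGACG, which that element contains, was in 20 (37.7%), against 23%. A gene counted where any of its windows held the letters, and some genes had several windows. The 53 members had 92 windows and the 27025 genes 32851, so the members had more windows per gene. The shares are thus not on an equal footing. By window, over all genes, TAATCC was in 7.06%, TGACGTCA in 1.79% and TGACG in 20.8%, and the members' share by window was not computed. These are matches of letters and not measured binding sites.

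Gucy1b1, the beta subunit of the soluble guanylyl cyclase that nitric oxide activates, had 396.5, 866.3 and 512.1. Pool 2 was 2.18-fold over pool 1, an SD of 0.57 against a typical 0.29 (limma, unadjusted p = 0.046, adjusted p = 0.90). The rod markers were highest in pool 2 too, and their part was not tested. Gucy2c, the gut receptor for guanylin, had 47.7, 343.3 and 153.7 by one set, which would not have passed the filter without pool 2. In that set pool 1 was under the floor and pool 2 at least 3.42-fold over it (limma, unadjusted p = 0.032, adjusted p = 0.83). The second Gucy2c set passed the floor only in pool 1 (121.3, 41.4 and 66.4). The hormones of that receptor were dim: Guca2b stayed under the floor throughout (36.5, 31.2 and 52), and Guca2a passed it in pool 2 alone (85.6, 142.9 and 53.3).

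Of 8 phosphodiesterase genes 5 passed the floor in every pool. Pde6d, which carries prenylated proteins to the photoreceptor outer segment and is not catalytic, had 1734.3, 1806.3 and 2164.1. Pde1b, an enzyme activated by calcium and calmodulin, had 1088.7, 769.7 and 986.3, lowest in pool 2. Its relatives Pde1a and Pde1c were under the floor in every pool, with signals between 19.5 and 100.9 for Pde1a and between 27.7 and 58.9 for Pde1c.

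The enzymes specific for cyclic AMP had no common order. Pde7a had 489, 275.6 and 239.6, highest in pool 1 by up to 2.04-fold. Pde4b had 186.2, 260.9 and 149, highest in pool 2. Pde8a had 30.8, 173.7 and 213.6, with pool 1 under the floor and pool 3 at least 2.13-fold over it. None of these passed the test (limma, adjusted p = 0.99 for each). Pde9a, specific for cyclic GMP, had 277.9, 205.6 and 219. Pde4dip, the scaffold, had 511, 542.2 and 671.5, and its second set did not pass the floor in any pool.

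The subunits of protein kinase A, the main reader of cyclic AMP, included the steadiest of the 72 measured sets. Prkacb, a catalytic subunit, had 2473, 2493.4 and 2590.5, and Prkaca, the other catalytic subunit, had 1368, 1433.3 and 1482.1. Their pools lay within 1.05-fold and 1.08-fold, and Prkacb had the lowest SD of the 72, 0.04 on the log2 scale against a typical 0.24. The regulatory subunit Prkar1a had 5805.1, 7080.3 and 6729.6.

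Prkar1b had 965.9, 1324.4 and 1321.2 by one set and 645.2, 697.4 and 977.9 by the other, and Prkar2a had 265, 361.7 and 410. Pool 1 was the lowest in all 6 measured sets of the kinases (34.8% of all sets), 2 of them of Prkar1b, by at most 1.55-fold, and none passed the test; quantile normalization moved the lowest place of Prkacb to another pool. The family's median SD was 0.21, and as a median log2 difference pool 1 minus pool 2 was -0.20 and pool 1 minus pool 3 was -0.33, beside -0.01 over all sets for each. Pool 1 also had the lowest rod sum (77592), Actb ratio (1.10) and Xist signal (69.5), whose part was not tested. The Gapdh ratio was lowest in pool 3 (0.75). Prkg2, a kinase dependent on cyclic GMP, was not measured (150.7, 127.7 and 25.8). Gnasas1 passed the floor in pool 1 alone (181.1, 92.1 and 59).

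Of 71 partner genes listed outside the rule (receptors, phospholipases, anchoring proteins, channels and inhibitors) 40 had a probe set and 29 were measured. Of the 40, 25 lay above the floor in every pool and 8 in none, against 57.9% and 23.3% of all probe sets. Each partner was read by its set of highest mean signal alone. The values for all sets and for the members count each set that entered, so these comparisons are of unlike measures. None of the 29 passed the test after adjustment, and 4 had an unadjusted p under 0.05 (limma), against 5.34% of all. Crebbp, a coactivator of Creb1, had 969.6, 630.1 and 1396.2, and Cap1, a cyclase-associated protein, 434.2, 162.9 and 376.8, both lowest in pool 2. Gnat1, the transducin alpha subunit of rods and one of the rod markers above, had 3228.9, 6226.7 and 3765.6, highest in pool 2. Pkia, an inhibitor that binds the catalytic subunits of protein kinase A, had 1089.7, 2237 and 893.6, highest in pool 2 (limma, unadjusted p = 0.0068, adjusted p = 0.59). The catalytic subunits themselves were level, as above. Other partners, picked after their values were seen, were steady. The dopamine receptors Drd4 and Drd2, which signal through Gi, had 587.1, 567.3 and 609.3 and 338.2, 323 and 350.3. Creb1, the factor that protein kinase A activates, had 203.6, 248 and 237. The median SD of the 29 was 0.39, beside 0.26 for the members and 0.27 for all measured sets.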

How the data were processed

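The deposited table holds a linear intensity for each probe set on each array. Its software was not given in the sources used here, nor was its background method. The authors' arrays had means of 500.26, 500.25 and 500.26 after trimming 2% at each end, so no further scaling was applied. A blank row and 66 control probe sets were dropped, leaving 12422. Symbols came from the supplied platform annotation. Of 10833 probe sets with a single symbol, 10817 were matched to a RefSeq gene identifier and given its symbol, whether or not this changed it. The floor was the 90th percentile of 19 bacterial and yeast control sets; signals under it were set to it before log2. Probe sets of the classes f, g, r and s have probes chosen under relaxed rules.

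Variability was tested with limma 3.58.1 in R 4.3.3 (intercept only, robust F fit with intensity trend, upper tail p, adjusted over 8327 probe sets, threshold 0.05). The fit was also run on simulated data with independent normal noise and no floor. Its outcome is not given here, and it cannot show how the test behaves on signals set to a floor. Python 3.11.15 with pandas 2.3.3 did the rest. With 3 arrays the precision is limited by their number. Signals per pool were to be given for up to 3 genes per family, the 8 largest and 5 smallest SDs and genes with several measured sets; they are given for the other members too. The members, lists and motifs were chosen with earlier results of these data known, and other short motifs were looked at and are not described. Alternatives covered scaling, floor, filter, pseudocount, variance fit and each array left out.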

Additional observations from a re-analysis of the deposited data

How the results depend on the processing

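No member probe set passed the variability test under any of the 11 alternatives run; the smallest adjusted p ranged from 0.332 (Gnb2, without pool 1) to 0.985, and between 3 and 8 members had an unadjusted p under 0.05 (limma). Over all probe sets the 18 calls became 52 with no filter on dim sets, 11 with log2(signal + 50) in place of the floor, 6 with the ordinary fit in place of the robust one, 0 when the intensity trend was dropped, and between 4 and 40 with an array left out; the cause was not tested. Members past 2-fold between any 2 pools, 11 here, numbered 19 with the floor at the median control and 5 among sets above the floor on all arrays, and between 2 and 7 with an array left out, when fewer pairs remain. The median SD stayed between 0.195 and 0.309, and 49 member genes above the floor on all arrays became 58 with the lower floor and 50 by any probe set. The range of the 57 measured genes moved by more than 1 SD for 2 of them after quantile normalization, 5 with the lower floor, 1 with the pseudocount, and 24, 16 and 17 without pools 1, 2 and 3; by the mean of all sets of a gene it moved for 5 of 19. Signals near the floor limit what can be said of dim genes. Labels give no replicate numbers, so no samples were paired.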

Other observations

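Some members lie side by side in the RefSeq gene table (GRCm38.p6), with no protein-coding gene between them: Rgs8 and Rgs16, Rgs5 and Rgs4, Gna15 and Gna11, Gnaq and Gna14, Guca2a and Guca2b, and Rgs9 and Gna13. Their signals were unlike within several pairs. Gnaq was above the floor in all pools and Gna14 in none. Gna11 was above it in all pools and Gna15 in 1. Rgs8 was level to 1.06-fold while Rgs16 ranged 1.30-fold by one set and at least 1.90-fold by the other. Rgs5 and Rgs4 were both highest in pool 3 by their set of highest signal, and the second Rgs5 set was lowest there.

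One bright gamma subunit probe set was outside the rule because the annotation gave it several symbols, Gng5 and its pseudogene Gng5-ps, and its signals were 4796.3, 4149.3 and 4864.7 in pools 1, 2 and 3.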
